A study of Mus musculus with 1504 samples.

Results

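The elastic fibre genes are 10 genes of the extracellular matrix, followed here over 1504 single cells of adult mouse lung. They were taken as a list of names, Eln, Fbn1, Mfap2, Mfap4, Emilin1, Fbln2, Fbln5, Lox, Loxl1 and Loxl2, and all 10 were found among the 21947 genes of the deposited read count table. The list of names alone was the rule, with no threshold on a value. Cells came from C57BL/6 mice, 12 to 15 weeks old by the sample labels and 10 to 19 weeks old by the design text, and were sorted by reporter fluorescence before SMART-seq2, a protocol that reads full-length transcripts of single cells. The labels give 361 cells to Pdgfrb(BAC)eGFP/NG2dsRed mice and 374 cells to Pdgfrb(BAC)eGFP mice, lines whose reporters mark mural cells of vessel walls, that is pericytes and smooth muscle, and also many fibroblasts. They give 769 cells to Cldn5(BAC)eGFP mice, whose reporter marks endothelium. The column names give 6 sets: Mural1 with 128 cells, Mural2 with 233, Mural3 with 374, and EC1, EC2 and EC3 with 243, 275 and 251. The EC sets were taken as the Cldn5 reporter, and no column name ties a Mural set to a reporter. No animal, plate or date is given, so each set or class of cells stands for a single sample without replicates, no p-value is given, and every interval below covers counting error only.

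Elastic fibres give the lung and its vessels their recoil. Cells secrete tropoelastin, the product of Eln. It is laid down on microfibrils built of fibrillin, joined by fibulins and other adaptors, and made insoluble by lysyl oxidases, which oxidise lysines so that crosslinks form. Most elastin of a lung is made in early life, and smooth muscle cells and fibroblasts are known as its main makers there.

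Promoters of 5 of the 10 genes were taken from the RefSeq promoter table for GRCm38.p6, those of Fbn1, Mfap2, Emilin1, Fbln2 and Fbln5. Any promoter of Lox was left out of this selection, so the motif counts below do not cover that gene. Of the promoters taken, Mfap2 and Fbln5 had a pair each, at different starts. Those shown are of Fbn1 and Mfap2, a pair of microfibril genes with unlike levels across the cell classes below, and of Fbln2 and Fbln5, fibulins that peaked in different classes. Each is the 250 bases upstream of a RefSeq start, written 5′ to 3′ on the strand of the gene, with matches to the GC box GGGCGG on either strand in capitals. The Fbn1 stretch is chr2:125506439-125506688 on the minus strand. The Mfap2 stretch is chr4:141010431-141010680 on the plus strand. The Fbln2 stretch is chr6:91212514-91212763 on the plus strand. The Fbln5 stretch is chr12:101819120-101819369 on the minus strand.
Fbn1: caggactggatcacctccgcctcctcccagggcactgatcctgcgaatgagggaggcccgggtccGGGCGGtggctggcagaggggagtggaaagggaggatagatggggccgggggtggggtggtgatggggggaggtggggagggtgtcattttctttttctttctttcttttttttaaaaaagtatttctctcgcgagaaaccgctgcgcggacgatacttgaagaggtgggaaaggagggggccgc
Mfap2: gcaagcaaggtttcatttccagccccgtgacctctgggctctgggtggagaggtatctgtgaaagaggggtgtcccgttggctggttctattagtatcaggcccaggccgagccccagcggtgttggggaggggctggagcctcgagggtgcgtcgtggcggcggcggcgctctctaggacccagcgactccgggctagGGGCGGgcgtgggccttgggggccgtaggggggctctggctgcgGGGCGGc
Fbln2: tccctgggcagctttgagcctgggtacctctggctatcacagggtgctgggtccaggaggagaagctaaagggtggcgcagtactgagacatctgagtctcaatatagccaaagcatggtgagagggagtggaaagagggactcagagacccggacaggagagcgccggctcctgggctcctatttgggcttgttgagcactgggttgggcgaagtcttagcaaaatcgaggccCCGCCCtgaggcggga
Fbln5: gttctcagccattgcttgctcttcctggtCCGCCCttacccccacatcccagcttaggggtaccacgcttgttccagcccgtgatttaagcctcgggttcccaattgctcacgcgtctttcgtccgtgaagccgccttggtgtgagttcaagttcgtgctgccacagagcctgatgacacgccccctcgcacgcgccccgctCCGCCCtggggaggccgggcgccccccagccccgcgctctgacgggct
A GC box stood once in the Fbn1 and Fbln2 stretches and 2 times in those of Mfap2 and Fbln5, and in none of the 3 stretches not shown, of Emilin1 and the other starts of Mfap2 and Fbln5, so that 4 of 7 held it. GC content was 59.2% for Fbn1, 68.8% for Mfap2, 58.8% for Fbln2 and 65.2% for Fbln5. Over the first listed start of 27025 genes in the table, 32.9% of stretches of this length held a GC box on either strand. The TATA box TATAAA, on either strand, was in none of the 7 stretches of these genes and in 13% of the 27025. The CArG box, the serum response factor motif of many smooth muscle genes, was in none of the 7 and in 1.4% of the 27025. These are matches of letters, not sites of binding.

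The median cell had 240178 reads in genes, and cells spanned 100229 to 609242. Clustering on 11076 genes, with the elastic fibre genes, their partner lists and a part of all other genes held out, gave 11 clusters. Markers named 8 of them, as 69 pericyte-like, 70 smooth muscle-like, 43 chondrocyte- or perichondrial-like, 399 fibroblast-like, 22 lymphatic endothelial-like, 74 aerocyte-like and 659 general capillary-like cells. Aerocytes are the thin capillary cells of the alveolus that carry Car4, and general capillary cells carry Gpihbp1 and Aplnr. The other 168 cells, in 3 clusters led by leukocyte, club cell and alveolar type 2 genes, stayed unnamed and were 3.91% of Mural1, 37.3% of Mural2, 16.0% of Mural3 and 1.99% to 2.18% of the EC sets. No cell of Mural3 was pericyte-like and 1 was smooth muscle-like, whereas 313 were fibroblast-like. Median reads per cell of the named classes ran from 146250 in pericyte-like to 371053 in fibroblast-like cells, so shares of cells with a read are given after thinning each cell to 50000 reads. The 11 epithelial markers summed to 3804 counts for each 1000000 reads in genes (CPM) in smooth muscle-like and 1395 in pericyte-like cells, against 405 in fibroblast-like cells, with none of the 11 at 0. The 10 fibroblast markers summed to 4221 CPM in pericyte-like, 3657 in smooth muscle-like and 31592 in chondrocyte- or perichondrial-like cells, against 60900 CPM in fibroblast-like cells. Their part in the results was not tested.

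Elastic fibre genes were mainly mesenchymal in these lungs, but not all of them. In both mural sorts Eln, Fbn1, Mfap4, Fbln2, Fbln5, Lox and Loxl1 stood well above the endothelial sort. The folds ran from 4.18 for Fbln5 to 317 for Mfap4. In summed reads Mfap2 was lower in every mural set than in every endothelial set, though by a smaller fold. The size rule used here, which is no test, asks for 50 CPM or more on the higher side, reads there in 25% or more of cells, and a fold of at least 4 between mesenchyme and endothelium or within endothelium, and of at least 2 within mesenchyme. In Mural3 against the EC sets 7 of the 10 passed as higher and none as lower, beside 2.58% and 2.04% of all 21947 genes. In Mural1 and Mural2 against the EC sets the same 7 passed as higher and none as lower, beside 2.65% and 1.59% of all genes. These comparisons share the EC cells. The median log2 difference of the 10 genes was 4.56 for Mural3 and 4.44 for Mural1 and Mural2, beside -0.46 over 5181 and -0.20 over 5432 genes with at least 50 CPM on a side. Of the 10, Loxl2 was under 50 CPM on both sides, here and in the comparisons with fibroblast-like cells of Mural1 and Mural2 or with general capillary-like cells below. Mfap2, Emilin1 and Loxl2 did not pass. Single sets weighed on some of these calls: for Mural1 and Mural2, Fbln5 and Lox did not pass without Mural1, nor Fbln5 without EC3, and Loxl2 passed without Mural2. Without EC2, which held most of the endothelial reads of Loxl1 and Lox, the log2 difference of Loxl1 was 9.97 in place of 8.27 for Mural3 and 9.55 in place of 7.86 for Mural1 and Mural2, and that of Lox was 9.10 in place of 7.97 and 8.40 in place of 7.27. Without EC2 that of Fbn1 was 6.43 and 5.65 for the same comparisons, in place of 5.57 and 4.79, and that of Mfap4 9.00 and 8.75, in place of 8.31 and 8.05. For Mural1 and Mural2, Eln ran from 4.01 without Mural1 to 5.23 without Mural2, Fbln2 from 3.69 to 4.91 and Lox from 6.22 to 8.15. Without EC3 Lox had 7.37 for Mural3 and 6.67 for Mural1 and Mural2. Over the EC sets 1 cell held 59.2% of the Mfap4 reads, 1 cell 46.5% of the Lox reads and 1 cell 45.1% of the Loxl1 reads.

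**Figure D1:**
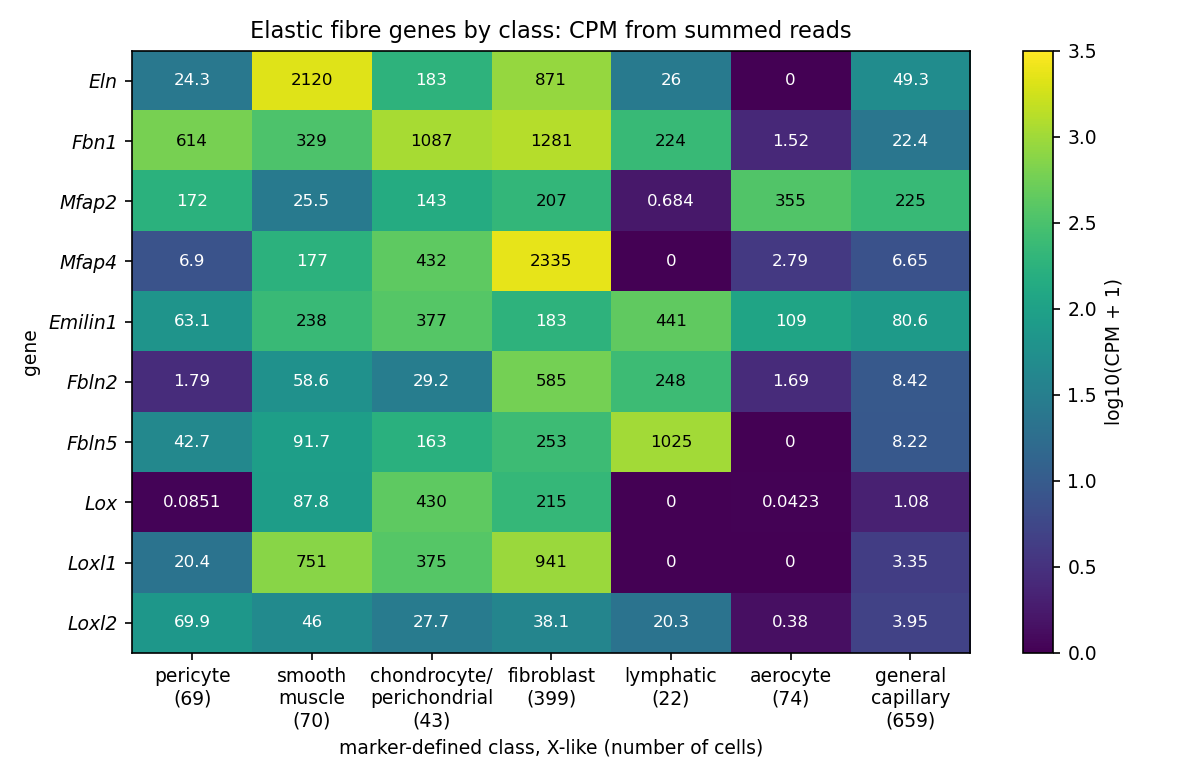
CPM of the 10 elastic fibre genes (rows) from reads summed over the cells of each marker-defined class (columns, with cell numbers), with the colour on a log10(CPM + 1) scale. Eln is highest in smooth muscle-like cells, Mfap4 in fibroblast-like cells, Fbln5 in lymphatic endothelial-like cells and Mfap2 in aerocyte-like cells.

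Elastin itself was a smooth muscle and fibroblast transcript. Eln, on the minus strand at chr5:134702593-134747323 (GRCm38, GENCODE M21), encodes tropoelastin, the soluble monomer of elastin. It reached 2119.6 CPM in smooth muscle-like cells (95% Poisson interval 2099 to 2139.9) and 871 CPM in fibroblast-like cells (867 to 876). In chondrocyte- or perichondrial-like cells it was at 183 CPM, and in general capillary-like cells at 49.3 CPM. Lymphatic endothelial-like cells had 26.0 CPM, pericyte-like cells 24.3 CPM and aerocyte-like cells no read. None of the Poisson intervals of the smooth muscle-like, fibroblast-like, chondrocyte- or perichondrial-like and general capillary-like classes overlapped, whereas those of the lymphatic endothelial-like and pericyte-like classes did. These intervals leave out the spread between cells and between sets, and 1 cell held 16.9% of the smooth muscle-like Eln reads. After thinning, 95.7% of smooth muscle-like cells and 85.5% of fibroblast-like cells had an Eln read, and the median smooth muscle-like cell stood at 1271 CPM, the median fibroblast-like cell at 298 CPM.

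The Eln level of 1 class was not the same in every set. Smooth muscle-like cells of Mural1 had 4503 CPM (16 cells) and those of Mural2 1290.1 CPM (53 cells), and 1 cell held 30.2% of the Mural1 reads. Fibroblast-like cells had 725 CPM in Mural3, 2094 CPM in Mural1 and 865 CPM in Mural2. Mural1 was thus the highest set for Eln in both classes. Pericyte-like cells were low in both sets, with 37.6 CPM in Mural1 and 15.3 CPM in Mural2, and a single cell held 50.2% of all their Eln reads.

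**Figure D2:**
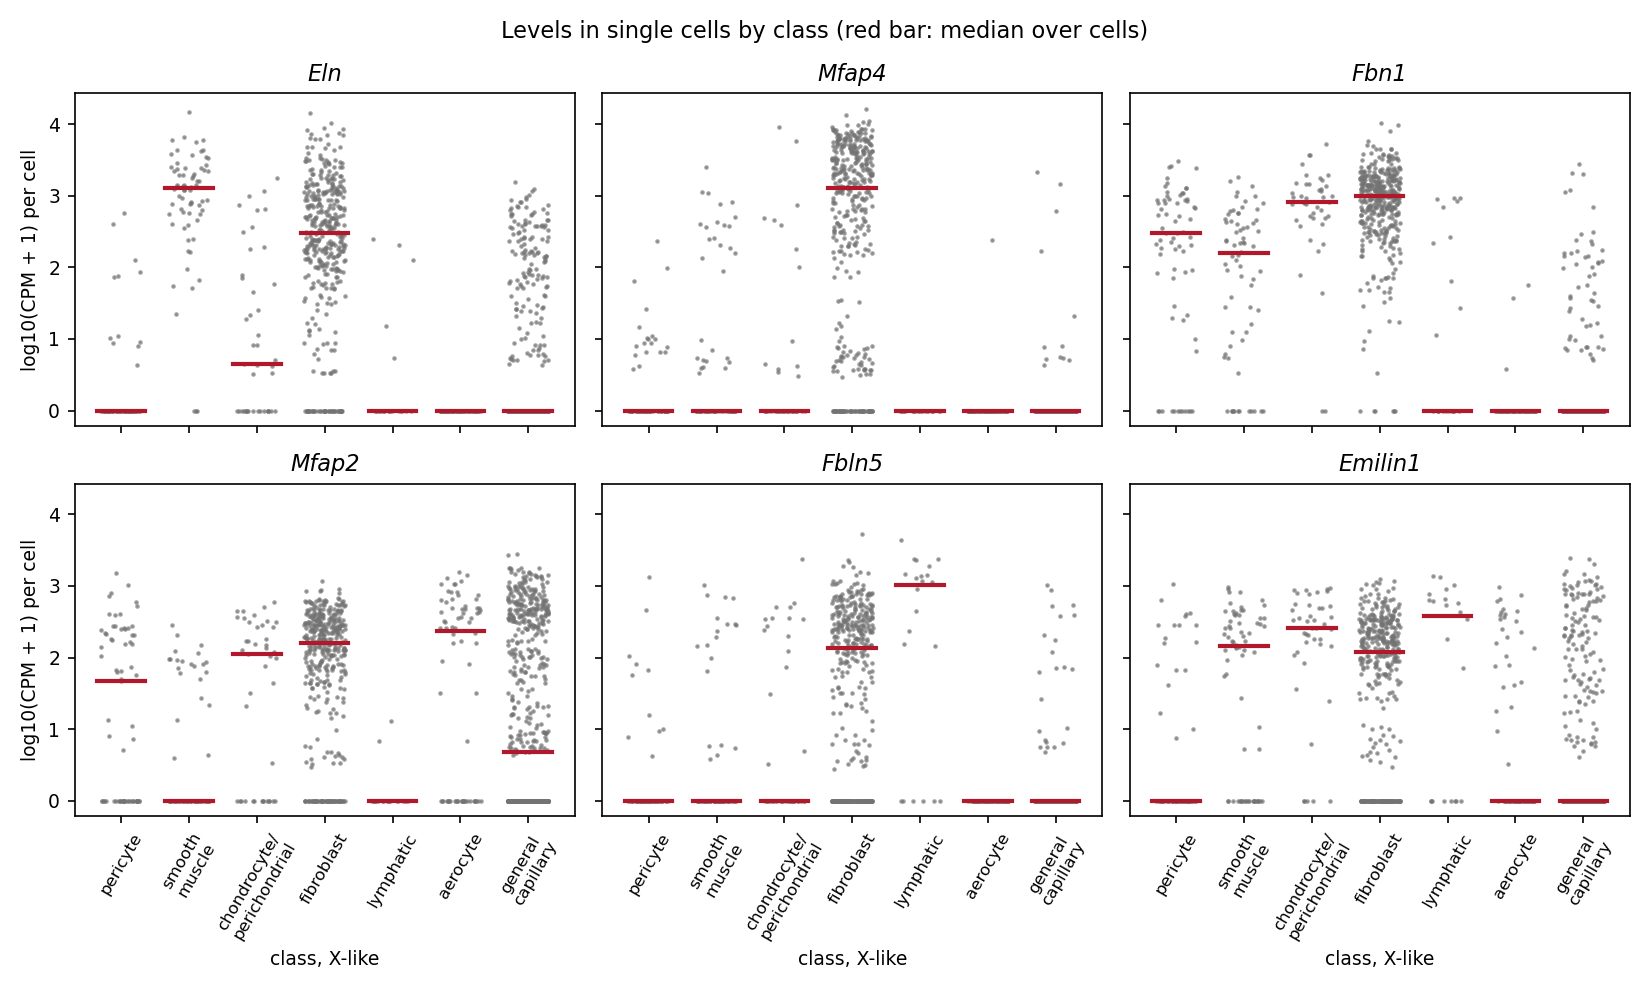
Each point is 1 cell, placed by its class (x axis) and its level on a log10(CPM + 1) scale (y axis), for Eln, Mfap4, Fbn1, Mfap2, Fbln5 and Emilin1, and the red bar is the median over cells. The median Eln level is 0 in pericyte-like cells and in all 3 endothelial classes, while Fbn1 lies above 0 in most pericyte-like, smooth muscle-like, chondrocyte- or perichondrial-like and fibroblast-like cells.

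The microfibril genes Fbn1 and Mfap2 had unlike patterns. Fbn1 (minus strand, chr2:125300594-125507993) encodes fibrillin-1, the backbone of the microfibril. It was found throughout the mesenchyme, with 1281 CPM in fibroblast-like, 1087 in chondrocyte- or perichondrial-like, 614 in pericyte-like and 329 in smooth muscle-like cells. Reads of Fbn1 were found in 97.2% of fibroblast-like, 95.3% of chondrocyte- or perichondrial-like, 81.2% of pericyte-like and 72.9% of smooth muscle-like cells. Pericyte-like cells carried the fibrillin transcript with little of the elastin transcript. By set they had 477 CPM in Mural1 and 705 CPM in Mural2. In endothelium Fbn1 was at 224 CPM in lymphatic endothelial-like, 1.52 in aerocyte-like and 22.4 in general capillary-like cells, where 1 cell held 24.5% of the reads.

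Mfap2 (plus strand, chr4:141010418-141015984) encodes MAGP-1, a small glycoprotein that binds fibrillin microfibrils. Its highest class was aerocyte-like, at 355 CPM (347 to 363). General capillary-like cells had 225 CPM, fibroblast-like 207, pericyte-like 172 and chondrocyte- or perichondrial-like 143 CPM. Smooth muscle-like cells had 25.5 CPM, and lymphatic endothelial-like cells 0.684 CPM from 4 reads in 22 cells. In whole sets it stood at 208 CPM in Mural3, 126 in Mural1 and 102 in Mural2, against 250.1, 229.9 and 216 CPM in EC1, EC2 and EC3. In summed reads Mfap2 was thus an endothelial transcript of the lung as much as a mesenchymal one, but not in shares of cells. After thinning, reads were in 79.4% of fibroblast-like, 63.5% of aerocyte-like and 43.6% of general capillary-like cells. The median cell of these classes stood at 159, 236 and 3.75 CPM. The 10 fibroblast markers summed to 15.5 CPM in aerocyte-like and 50.5 CPM in general capillary-like cells, against 60900 CPM in fibroblast-like cells.

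Mfap4 and Emilin1 encode glycoproteins of the fibre surface. Mfap4 (plus strand, chr11:61485431-61488900), whose product binds tropoelastin and fibrillin, had the largest fold of the 10 between fibroblast-like and general capillary-like cells. It had 2335 CPM in fibroblast-like cells, 432 in chondrocyte- or perichondrial-like cells, where 1 cell held 49.3% of the reads, and 177 in smooth muscle-like cells. Pericyte-like cells had 6.90, aerocyte-like 2.79, general capillary-like 6.65 CPM and lymphatic endothelial-like cells no read. Within fibroblast-like cells its spread was wide, with a lower quartile of 53.2, a median of 1264 and an upper quartile of 3977 CPM per cell. Exons of Mapk7 overlap those of Mfap4, and without strand the reads of the overlap cannot be told apart.

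Emilin1 (plus strand, chr5:30913402-30921277) encodes an elastin-binding protein found between elastin and microfibrils. Its level was spread over both lineages, with 441 CPM in lymphatic endothelial-like, 377 in chondrocyte- or perichondrial-like, 238 in smooth muscle-like and 183 in fibroblast-like cells. Aerocyte-like cells had 109, general capillary-like 80.6 and pericyte-like 63.1 CPM. It alone among the 10 had at least 50 CPM in all 7 classes.

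The fibulins Fbln2 and Fbln5 peaked in different classes. Fbln5 (minus strand, chr12:101746565-101819055) encodes fibulin-5, which brings tropoelastin and LOXL1 together on microfibrils and is needed for elastic fibre assembly in mice. Its highest class was lymphatic endothelial-like, at 1025 CPM (999.7 to 1052), above fibroblast-like cells at 253 and chondrocyte- or perichondrial-like cells at 163 CPM. Smooth muscle-like cells had 91.7 and pericyte-like cells 42.7 CPM, the second with 76.6% of reads in 1 cell. General capillary-like cells had 8.22 CPM and aerocyte-like cells no read. Of the 6959 Fbln5 reads in the EC sets, 5998 came from the 22 lymphatic endothelial-like cells.

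Fbln2 (plus strand, chr6:91212455-91272540) encodes fibulin-2, a ligand of fibrillin and elastin. It was highest in fibroblast-like cells at 585 CPM, then in lymphatic endothelial-like cells at 248 CPM, with reads in 75.9% and 54.5% of cells. Smooth muscle-like cells had 58.6 CPM and chondrocyte- or perichondrial-like cells 29.2 CPM, from 1 cell for 45.6% and 98.2% of their reads. General capillary-like, pericyte-like and aerocyte-like cells had 8.42, 1.79 and 1.69 CPM.

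The lysyl oxidases split by class. Loxl1 (minus strand, chr9:58287738-58313186) encodes the enzyme most closely tied to elastic fibres in mice. It was found in 98.5% of fibroblast-like cells, at 941 CPM, and in 95.7% of smooth muscle-like cells, at 751 CPM. Chondrocyte- or perichondrial-like cells had 375 CPM in 79.1% of cells. Pericyte-like cells had 20.4 CPM, of which 1 cell held 93.3%, and lymphatic endothelial-like and aerocyte-like cells had no read. Lox (minus strand, chr18:52516067-52529867) encodes lysyl oxidase and was highest in chondrocyte- or perichondrial-like cells, at 429.7 CPM, then in fibroblast-like cells at 215 and smooth muscle-like cells at 87.8 CPM. Its reads were in 53.5% of chondrocyte- or perichondrial-like cells and 62.2% of fibroblast-like cells, and the median cells stood at 108 and 102 CPM. Pericyte-like cells had 1 Lox read in 69 cells, and general capillary-like cells 1.08 CPM.

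Loxl2 (plus strand, chr14:69609068-69695834), whose product also crosslinks collagens of basement membranes, was low throughout. Between whole classes it alone among the 10 was highest in pericyte-like cells, at 69.9 CPM (65.2 to 74.8) with reads in 43.5% of cells. A group of 31 cells from a finer clustering of fibroblast-like cells, described below, had 72.9 CPM (67.8 to 78.1), in 61.3% of cells. Smooth muscle-like cells had 46.0 and fibroblast-like cells 38.1 CPM, in 35.7% and 39.3% of cells. By set, pericyte-like cells had 75.1 CPM in Mural1 and 66.4 CPM in Mural2.

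**Figure D3:**
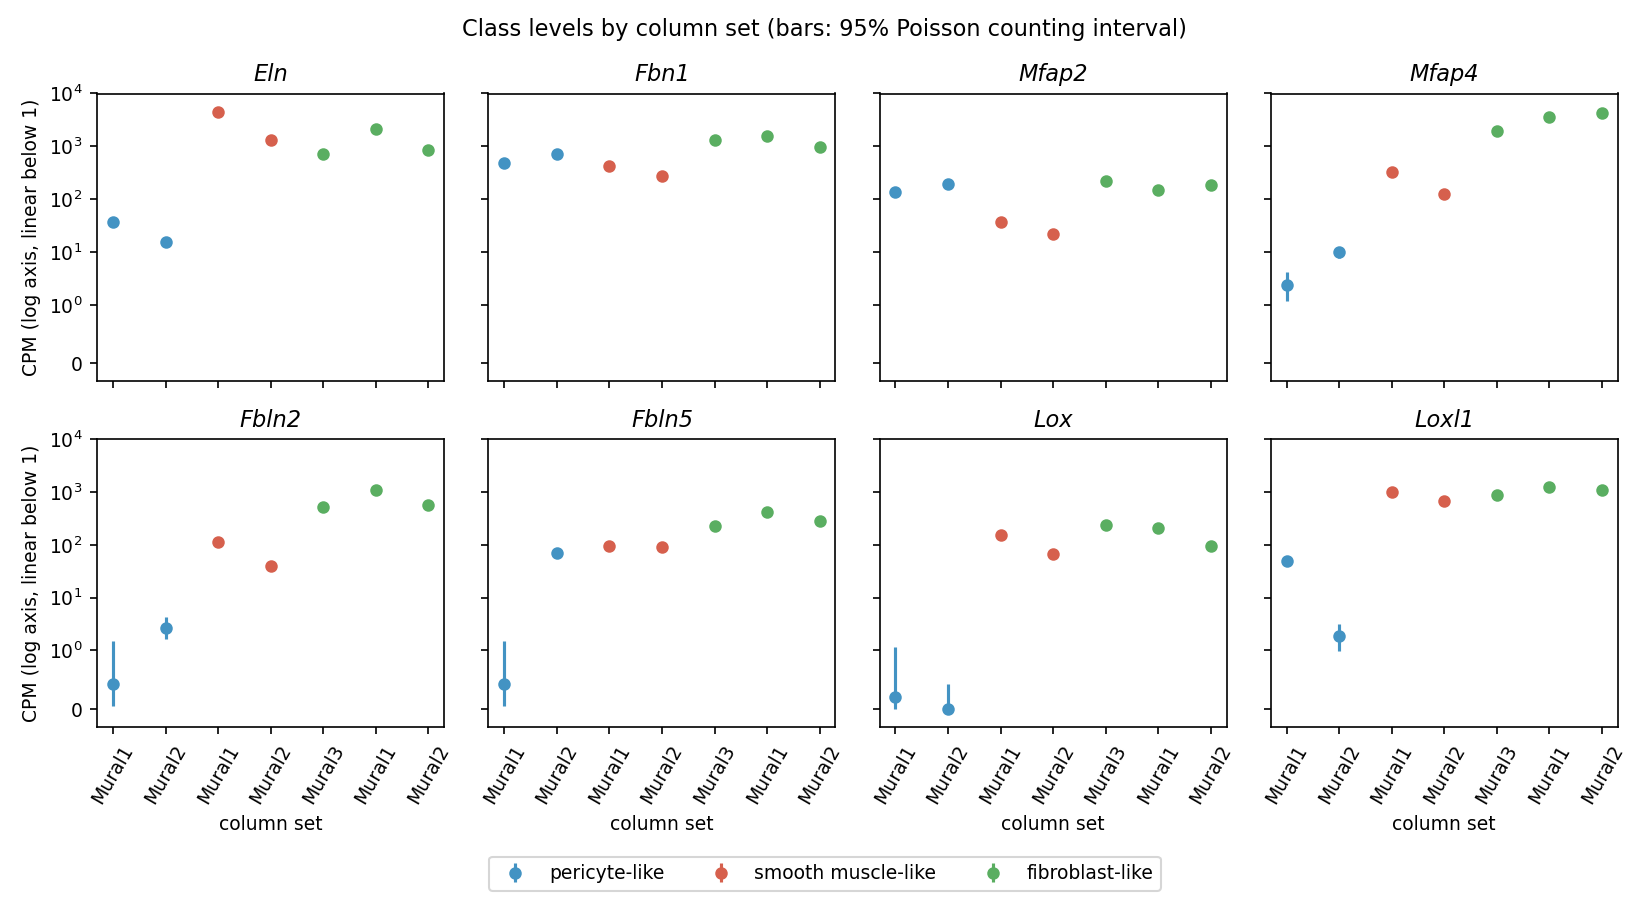
CPM (y axis, logarithmic above 1 and linear below) of 8 elastic fibre genes in pericyte-like, smooth muscle-like and fibroblast-like cells of each Mural set (x axis), with 95% Poisson counting intervals, most of them smaller than the points. Eln in smooth muscle-like cells stands at 4503 CPM in Mural1 and 1290.1 CPM in Mural2, and Lox in pericyte-like cells rests on 1 read.

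Set per kilobase of exon, each class had its own mix of the 10 transcripts. In fibroblast-like cells Mfap4 made up 57.8% of their summed CPM per kb, Loxl1 13.6%, Mfap2 8.15%, Eln 5.12% and Fbn1 5.03%. In smooth muscle-like cells Eln made up 36.0%, Loxl1 31.3% and Mfap4 12.7%. In pericyte-like cells Mfap2 made up 59.8% and Fbn1 21.3%, so that microfibril transcripts led there. Chondrocyte- or perichondrial-like cells had the lowest leading share of any class, with 29.3% for Mfap4 down to 11.7% for Fbn1 among the first 5. That leading share rests on few cells. After thinning, Mfap4 was found in 8 of the 43 cells of this class, and 1 cell held 49.3% of its reads before thinning. In lymphatic endothelial-like cells Fbln5 made up 49.0% and Emilin1 29.5%, and Mfap2 made up 92.4% in aerocyte-like and 85.2% in general capillary-like cells. The sum over the 10 genes was 2102 CPM per kb in fibroblast-like, 769 in chondrocyte- or perichondrial-like, 727 in smooth muscle-like and 238 in pericyte-like cells. Eln depends on the length used: per kb of its longest transcript, 3853 bases in place of an exon union of 8098, its level was 550.1 in place of 262 CPM per kb in smooth muscle-like cells and 226 in place of 108 in fibroblast-like cells.

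**Figure D4:**
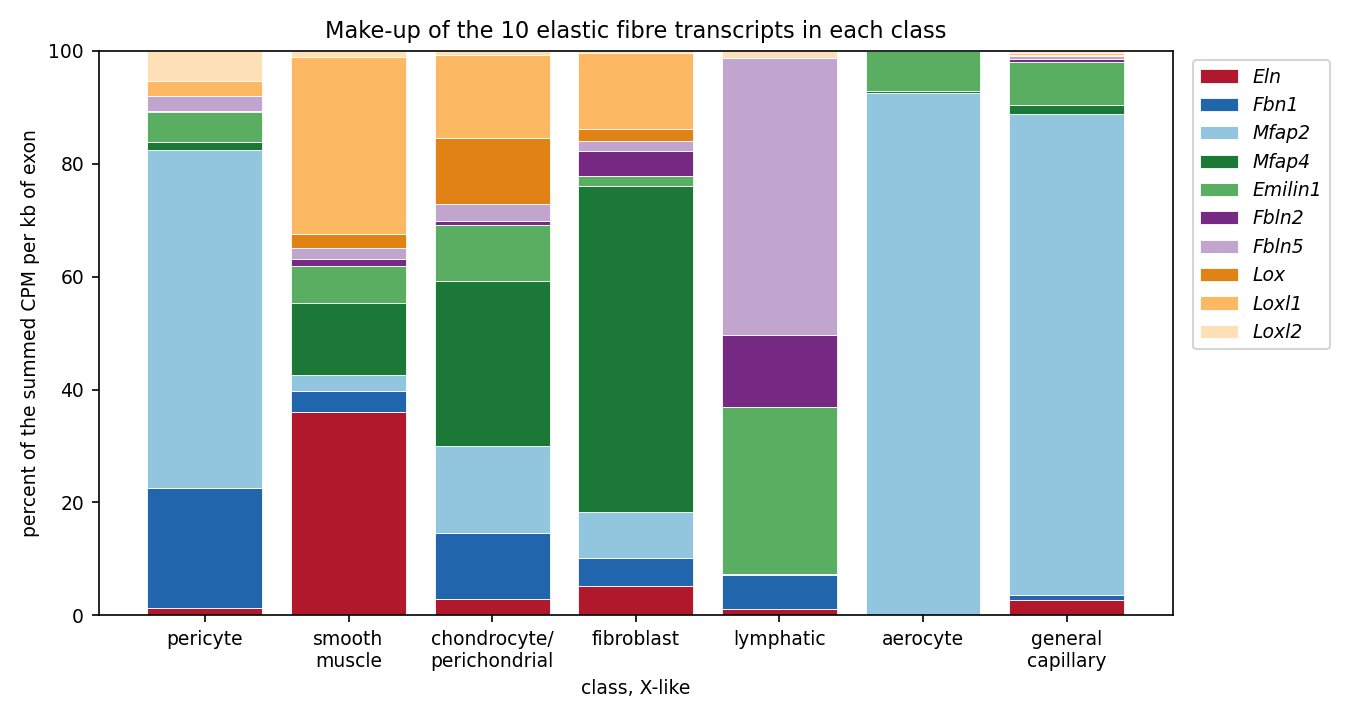
Stacked bars give the percent of the summed CPM per kb of exon (y axis) that each of the 10 transcripts made up in each class (x axis). Mfap4 fills 57.8% of the fibroblast-like bar, Eln 36.0% of the smooth muscle-like bar and Mfap2 59.8% of the pericyte-like bar.

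Between classes, fibroblast-like cells exceeded general capillary-like cells in the same 7 genes as the sorts did. The rule was passed by 7 of the 10 as higher and by none as lower, beside 3.03% and 1.99% of the 10871 genes kept out of the clustering. The folds were 351 for Mfap4, 280.5 for Loxl1, 199 for Lox, 69.4 for Fbln2, 57.1 for Fbn1, 30.8 for Fbln5 and 17.7 for Eln. Eln had the smallest fold of the 7, and 19.1% of general capillary-like cells held Eln reads. The median log2 difference of the 10 was 5.39, beside -0.42 over 2526 held-out genes with at least 50 CPM on a side. EC2 carried much of the endothelial level of several genes, and much of that level lay in single cells. In general capillary-like cells 1 cell held 64.1% of the Mfap4 reads and 1 cell 46.8% of the Lox reads. Mfap4 was found there in 5 of 659 cells after thinning. Of the Loxl1 reads of the EC sets 1 cell held 45.1%. Without EC2 the log2 difference was 9.81 in place of 8.13 for Loxl1 and 8.76 in place of 7.64 for Lox. For Fbn1 it was 7.02 in place of 5.84 and for Mfap4 9.31 in place of 8.46. Without EC3 it was 5.73 in place of 4.95 for Fbln5, and without Mural3 it was 4.86 in place of 4.14 for Eln and 9.20 for Mfap4.

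Smooth muscle-like cells had less of the microfibril and fibulin transcripts than fibroblast-like cells of the same sets, but not less of the elastin transcript. Within Mural1 and Mural2, Eln stood at 2145 CPM in 69 smooth muscle-like cells, against 1431 CPM in 86 fibroblast-like cells, a log2 difference of 0.58 that did not pass. By set it stood at 4503 against 2094 CPM in Mural1 (16 and 41 cells) and 1290.1 against 865 CPM in Mural2 (53 and 45 cells). Mural1, the higher set for Eln, was thus a smaller part of the smooth muscle-like side of the pooled value. None of the 10 passed as higher and 5 passed as lower, beside 4.19% and 3.16% of the held-out genes. The 5 were Mfap4, 21.8-fold lower, Fbln2, 13.5-fold, Mfap2, 6.57-fold, Fbn1, 3.92-fold, and Fbln5, 3.74-fold. Emilin1 stood at 241 against 191 CPM, Loxl1 at 753 against 1173 CPM and Lox at 88.9 against 146 CPM, none past the rule. Over the 10 genes the median was -1.31 on the log2 scale, beside 0.25 over 2309 genes. Without Mural1 that of Mfap4 was -5.05 in place of -4.45.

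Pericyte-like cells had little of the Eln, Mfap4, Lox and Loxl1 transcripts that smooth muscle-like cells had. Of the 10 genes, 1 passed as higher and 5 as lower, beside 4.24% and 4.32% of the held-out genes. Eln was 88.4-fold lower (78.7 to 99.7), at 24.3 CPM in pericyte-like against 2145 CPM in smooth muscle-like cells. Loxl1 was 36.8-fold lower, Mfap4 26.0-fold and Emilin1 3.82-fold lower. Lox had 1 read in pericyte-like and 1752 reads in smooth muscle-like cells, a ratio of 1044 with an interval of 187 to 41249. Its log2 differences below are smaller because they raise the pericyte-like side to a floor of 3 reads. Mfap2 was 6.68-fold higher (6.06 to 7.37). Fbn1 stood at 614 against 317 CPM, just under the fold of 2, and passed without Mural1. Without Mural1 the log2 differences were -3.67 in place of -4.70 for Mfap4, -7.27 in place of -8.44 for Lox and -8.51 in place of -5.20 for Loxl1. Their median log2 difference over the 10 was -3.32, beside 0.23 over 2636 genes.

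Chondrocyte- or perichondrial-like cells, named by the cartilage markers Col2a1, Acan and Chad, were close in Fbn1 and lower in Eln than fibroblast-like cells of Mural1 and Mural2. Lox passed as higher, at 429.7 against 146 CPM, and 5 genes passed as lower, beside 3.18% and 3.04% of the held-out genes. The 5 were Fbln2, 27.4-fold lower, Mfap4, 9.03-fold, Eln, 7.82-fold, Loxl1, 3.13-fold, and Fbln5, 2.10-fold. Fbn1 stood at 1087 against 1242 CPM and Emilin1 at 377 against 191 CPM. As a group the 10 had a median log2 difference of -0.78, beside 0.19 over 2245 genes. Nearly the whole class, 38 of 43 cells, came from Mural1. Within that set Lox stood at 459 CPM, against 205 CPM in fibroblast-like cells. Of all Lox reads of the class 1 cell held 20.3%. The Mfap4 difference had a log2 value of -3.89 or -3.86 in place of -3.18 at a coarser or finer clustering. The class had 42 cells in each of these, in place of 43. In the main clustering 1 cell held 49.3% of its Mfap4 reads.

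Within the fibroblast-like class Eln and Fbln5 differed in opposite directions. Cluster 3 (86 cells, led by Cyp2e1, Nrcam and Col13a1) had 1561 CPM of Eln, against 688 CPM in cluster 2 (313 cells, led by Sfrp4, Scara5 and Ccl11). It had 126 CPM of Fbln5, against 287 CPM in cluster 2. Eln passed as higher and Fbln5 as lower, beside 1.44% and 0.773% of the held-out genes, and Eln did not pass with TMM scaling. By set, Eln stood at 1514 CPM in cluster 3 against 497 CPM in cluster 2 in Mural3, 2849 against 1952 CPM in Mural1 and 924 against 854 CPM in Mural2. Fbln5 stood at 132 against 258 CPM in Mural3, 133 against 461 CPM in Mural1 and 64.5 against 329 CPM in Mural2. Both differences had the same direction in all 3 sets, and cluster 3 held 6 cells in Mural1 and 8 in Mural2. Loxl1 stood at 938 against 942 CPM and Fbn1 at 1146 against 1317 CPM.

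A finer clustering of all cells, added after the data were seen, gave 4 fibroblast-like groups. They held 403 cells, of which 399 were those of the class above. Its group led by Notum, Nrcam and Itga8 (84 cells, 83 of them from cluster 3) had 1567 CPM of Eln and 3179.5 CPM of Mfap4, with 125 CPM of Fbln5. A small group led by Cytl1, Meox1 and Chad had 31 cells, 17 of Mural1, 2 of Mural2 and 12 of Mural3. Cytl1, Chad and Comp, among its leading genes, are also markers of the chondrocyte- or perichondrial-like class. This small group had an Eln level like that of the Notum group, 1530.0 CPM, and 1212 CPM of Loxl1. It had the highest fibulins, 1322 CPM of Fbln2 and 538 CPM of Fbln5. The group led by Sfrp4 and Aldh1a3 (187 cells) had 584 CPM of Eln and 679.6 CPM of Fbln2. The group led by Il6 and Lepr (101 cells) had 632 CPM of Eln, 255 CPM of Fbln2 and the highest Lox level, 294 CPM. These groups were read after their values were seen and are descriptions.

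Between fibroblast-like cells of Mural3 and of the other mural sets 1 gene passed, and not firmly. Mfap4 passed as lower, at 1924 CPM in Mural3 against 3906 CPM in Mural1 and Mural2, a 2.03-fold difference at the edge of the rule, and none passed as higher, beside 0.506% and 0.488% of the held-out genes. Mfap4 stood at 1924 CPM in Mural3, 3549 in Mural1 and 4211 in Mural2, and no longer passed when each cell was weighted equally, under TMM or median-ratio scaling, with the authors' scores or without Mural2. Eln stood at 725 against 1431 CPM and Lox at 233 against 146 CPM. Eln and Fbln2 passed as lower without Mural2, and Lox passed as higher without Mural1. The log2 difference of Eln was -0.26 without Mural1, in place of -0.98, and that of Lox was 1.29, in place of 0.67. Fbn1 and Emilin1 had folds of 1.04 and 0.947. Loxl2 stood at 38.0 CPM in Mural3, between 61.5 CPM in Mural1 and 19.3 CPM in Mural2, and its log2 difference was 0.98 without Mural1 and -0.70 without Mural2, in place of -0.03.

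Endothelium held a short list of elastic fibre transcripts that depended on its class. Lymphatic endothelial-like cells exceeded general capillary-like cells of the EC sets in 4 genes and fell below them in 1, beside 1.55% and 1.47% of the held-out genes. Fbln5 stood at 1025 against 6.61 CPM, a 155-fold difference (144 to 167), and Fbln2 at 248 against 6.89 CPM, 36.0-fold. Fbn1 was 10.1-fold and Emilin1 5.48-fold higher. Mfap2, with 4 reads, was 329.6-fold lower (129 to 1209.8). By set the lymphatic endothelial-like cells had 1293, 1379.6 and 599.6 CPM of Fbln5 in EC1, EC2 and EC3, with 7, 6 and 9 cells, and 223, 159 and 783 CPM of Emilin1. EC3 was the lowest set for Fbln5, where 1 cell held 71.1% of the reads, and the highest for Emilin1. Mfap4, Lox and Loxl1 had no read in the 22 cells, which allows a share of up to 13.6% by a limit of 3 counts. The 10 fibroblast markers summed to 112 CPM in these cells, with 5 of the 10 at 0. No set could be left out, since fewer than 20 cells would remain.

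Aerocyte-like cells had Mfap2 and Emilin1 and next to nothing else. No gene of the 10 passed against general capillary-like cells in either direction, beside 0.598% of the held-out genes that passed as higher and 0.469% as lower. Mfap2 stood at 355 against 225 CPM, 1.57-fold, with reads in 63.5% and 43.4% of cells. In EC1, EC2 and EC3 it stood at 412, 413 and 298 CPM in aerocyte-like cells, against 247, 218 and 212 CPM in general capillary-like cells. Eln had no read in 74 aerocyte-like cells, which allows a share of up to 4.05% by a limit of 3 counts, against 49.2 CPM and 19.0% of general capillary-like cells, so that it was at least 388-fold lower by a floor of 3 reads. It could not pass, as 49.2 CPM lies just under 50 CPM and 19.0% under 25% of cells. The absence depends on 2 cells: with all genes in the clustering the class had 76 cells and the log2 difference was -4.02, in place of -8.60 by the floor. It was -7.76 without EC3. Mfap2 and Emilin1, at 109 against 80.4 CPM, were the 2 genes of the 10 with at least 50 CPM on a side.

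**Figure D5:**
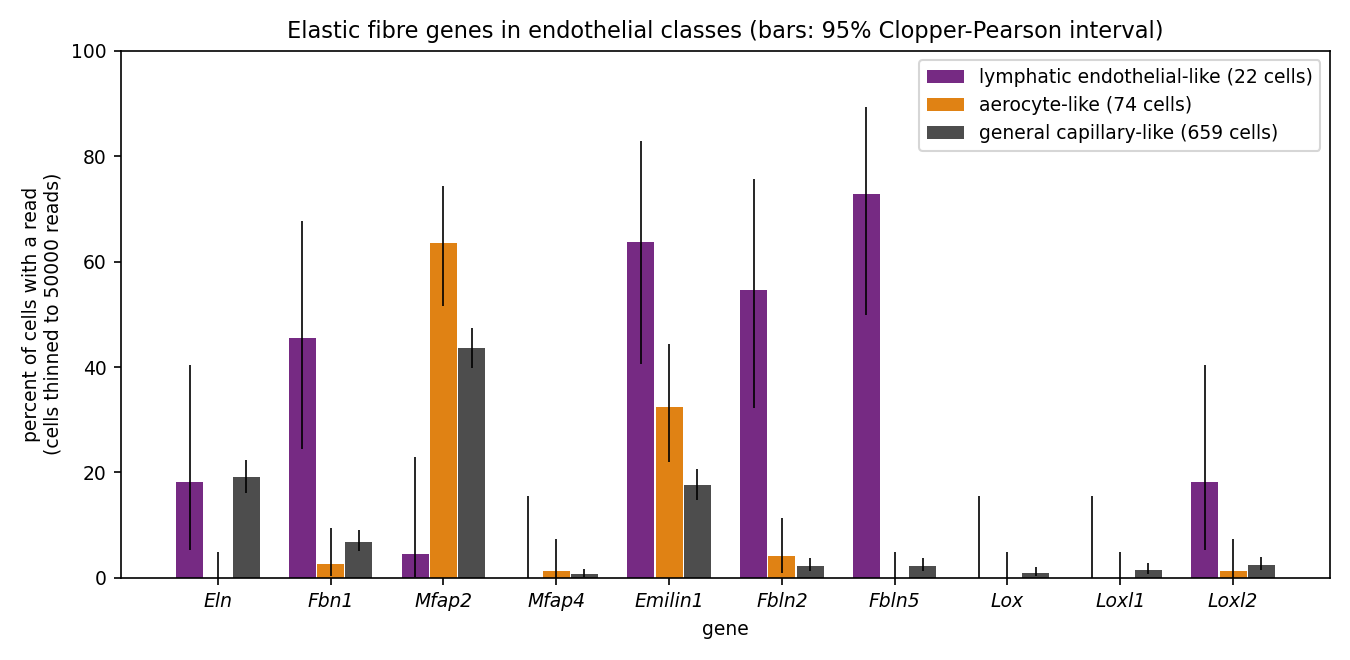
Percent of cells with a read after thinning to 50000 reads (y axis, with 95% Clopper-Pearson intervals) for each gene (x axis) in lymphatic endothelial-like, aerocyte-like and general capillary-like cells. Fbln5 is found in 72.7% of lymphatic endothelial-like cells, no aerocyte-like cell and 2.28% of general capillary-like cells.

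General capillary-like cells were not uniform. Eln reads were in 126 of 659 cells, up to 1543 CPM in a cell, and in EC1, EC2 and EC3 the level was 61.4, 50.2 and 35.6 CPM. When the cells were ordered after thinning by how many of 7 arterial markers they held, Emilin1 stood at 120.1 CPM in 179 cells with 0 or 1 marker, 99.8 in 185 with 2, 58.7 in 173 with 3, 32.4 in 96 with 4 and 14.3 in 26 with 5 to 7. Emilin1 reads were in 22.3%, 20.5%, 12.7%, 13.5% and 11.5% of cells of these groups, the last being 3 cells. Fbn1 was found in 8 of the 26 cells with 5 to 7 markers, 30.8% (14.3 to 51.8, Clopper-Pearson), and in 5.03% to 7.29% of cells in the other groups. Mfap2 stood at 59.2 CPM in those 26 cells and between 201 and 253 CPM in the others, but its shares of cells were close. Its reads were in 38.5% of the 26 cells (20.2 to 59.4) and in 41.9% to 47.4% of cells in the others. Eln levels had no steady order over the groups, at 69.5, 42.6, 39.0, 31.0 and 101 CPM. These are descriptions of 1 pool of cells, with no test.

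Counted per cell after thinning, the median number of the 10 genes with a read was 8 in fibroblast-like, 5 in smooth muscle-like, 5 in chondrocyte- or perichondrial-like, 3 in lymphatic endothelial-like, 2 in pericyte-like and 1 in aerocyte-like and general capillary-like cells. At least 6 of the 10 were found in 357 of 399 fibroblast-like cells (89.5%), 27 of 70 smooth muscle-like cells (38.6%) and 2 of 659 general capillary-like cells (0.303%). In fibroblast-like cells each of the 45 pairs was found together within 5 percentage points of the product of their separate shares. Eln and Mfap4 shared 278 of 399 fibroblast-like cells, 69.7% against a product of shares of 67.0%. The pair furthest from its product in smooth muscle-like cells was Mfap4 and Fbln5, in 10 of 70 cells, 14.3% against 5.82%. Levels across single cells were weakly related: over 399 fibroblast-like cells the largest Pearson r of log2(CPM + 1) among 45 pairs was 0.369, for Eln and Mfap4 (Spearman rho 0.449), and over 70 smooth muscle-like cells Mfap4 and Fbln5 had 0.482 (rho 0.422) and Eln and Loxl1 0.393 (rho 0.345). Such cells share their library preparation and differ in depth.

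Patterns across classes were compared over 14 class by set units of at least 15 cells, among 8359 genes with at least 50 CPM in some unit, by Pearson r of log2(CPM + 1). Nearest to Eln were Gas6 (0.959), Ifit2 (0.955) and Rab3d (0.948), and among the 10 genes Loxl1 was at 0.909. Nearest to Fbn1 were Emp3 (0.979), Capg (0.975) and Gpx8 (0.974), and to Mfap4 Pdgfrl (0.960), Itgbl1 (0.959) and Medag (0.956). Nearest to Fbln2 were Podn (0.964), Timp1 (0.955) and Mfap4 (0.954), and to Fbln5 Spsb1 (0.981), Pdzrn3 (0.966) and Ogn (0.951). Nearest to Emilin1 were Ptgis (0.927), Lox (0.892) and Cpxm2 (0.888). Nearest to Lox were Larp6 (0.979), Pla2g4a (0.977) and Gpsm2 (0.976), to Loxl1 Echdc2 (0.979), Olfml1 (0.969) and Crispld2 (0.964), and to Loxl2 Adamts12 (0.979), C1qtnf1 (0.968) and Cd81 (0.967). Mfap2 stood apart from the other 9, with r from -0.729 with Eln to -0.372 with Fbln2, and its nearest genes were Nck1 (0.912), Fam179b (0.897) and Rtp4 (0.888). Lymphatic endothelial-like cells, with under 15 cells a set, are not in these units.

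Partners of the fibre were read from 9 lists, with 66 measured genes. In fibroblast-like against general capillary-like cells 30 passed as higher and 2 as lower, beside 3.03% and 1.99% of the held-out genes. In smooth muscle-like against fibroblast-like cells 4 passed as higher, a share near the 4.19% of the held-out genes, and 24 as lower, beside 3.16%. In pericyte-like against smooth muscle-like cells 10 passed as higher and 6 as lower, beside 4.24% and 4.32%, with more higher than lower where the elastic fibre genes had 1 and 5. In chondrocyte- or perichondrial-like against fibroblast-like cells 8 passed as higher and 16 as lower, beside 3.18% and 3.04%. In Mural3 against the EC sets 26 passed as higher and 2 as lower, beside 2.58% and 2.04% of all genes, and in Mural1 and Mural2 against the EC sets 23 and 2, beside 2.65% and 1.59%. Against general capillary-like cells, 7 passed as higher and 1 as lower in lymphatic endothelial-like cells, beside 1.55% and 1.47%, and 4 and 2 in aerocyte-like cells, beside 0.598% and 0.469%. Of the 51 genes that reached 50 CPM in a class, 18 were highest in fibroblast-like and 12 in chondrocyte- or perichondrial-like cells, 8 in lymphatic endothelial-like and 7 in pericyte-like cells, 3 in aerocyte-like, 2 in smooth muscle-like and 1 in general capillary-like cells.

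Among other fibulins, 3 of 5 measured genes passed as higher and 1 as lower in fibroblast-like against general capillary-like cells, beside 3.03% and 1.99% of the held-out genes. Fbln1 (fibulin-1) stood at 2269.6 CPM and Efemp1 (fibulin-3) at 972 CPM in fibroblast-like cells, whereas Hmcn1 (hemicentin-1) stood at 150.3 CPM there and 971 CPM in general capillary-like cells. Of 8 other microfibril proteins 3 passed as higher: Mfap5 (MAGP-2) at 1192 CPM, Vcan (versican) at 281 CPM and Bgn (biglycan) at 7792 CPM in fibroblast-like cells. Of the latent TGF-beta binding proteins, which dock on microfibrils, Ltbp1 was highest in smooth muscle-like cells at 647 CPM, Ltbp2 in pericyte-like cells at 2315 CPM and Ltbp4, whose product binds fibulin-5, in lymphatic endothelial-like cells at 3026 CPM, with 2125 CPM in fibroblast-like cells. Of the EMILIN family, Emilin2 reached 104 CPM in fibroblast-like cells, Mmrn1 4935 CPM in lymphatic endothelial-like cells, and Mmrn2 527 CPM in lymphatic endothelial-like and 252 CPM in general capillary-like cells.

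The other lysyl oxidases Loxl3 and Loxl4 were highest in chondrocyte- or perichondrial-like cells, at 361 and 170.4 CPM, and both passed as higher there against fibroblast-like cells. Of the 10 genes for lysyl oxidase activation and copper supply, 4 passed as higher in fibroblast-like against general capillary-like cells, beside 3.03% of the held-out genes, the share to set beside each count here. Pcolce, an enhancer of procollagen C-proteinase, stood at 2328 CPM in fibroblast-like cells, Fn1 (fibronectin) had 7862 CPM in the chondrocyte- or perichondrial-like class and Postn (periostin), which helps activate lysyl oxidase, had 10075 CPM in pericyte-like cells. Of 10 ADAMTS and ADAMTS-like genes 5 passed as higher in that comparison. Adamts10 and Adamtsl3 were highest in pericyte-like cells at 378 and 424 CPM, and Thsd4 (ADAMTSL6), which promotes fibrillin-1 microfibrils, stood at 653 CPM in chondrocyte- or perichondrial-like and 402 CPM in smooth muscle-like cells. Of 9 receptor and chaperone genes 4 passed as higher in it. Fkbp10, a chaperone of tropoelastin, had 458 CPM in chondrocyte- or perichondrial-like cells, beside 764 CPM of Fkbp9 and 1186 CPM of Serpinh1 (HSP47). Of 14 measured elastases and inhibitors 7 passed as higher in it. Mmp2 (gelatinase A) stood at 2632 CPM and Timp3 at 3958 CPM in fibroblast-like cells, and Cst3 (cystatin C) reached 6242 CPM in the chondrocyte- or perichondrial-like class.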

How the data were processed

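SMART-seq2 libraries of 1504 cells were given as raw read counts per gene and as scores. Per the submitters' processing notes, reads were aligned with STAR 2.4.2a to mm10 before the authors made the count table; the counter, its annotation and strand setting are not given in the sources used here. The deposited score values are, from a check of the files, each cell's reads scaled by the authors to 500000 and rounded, within 0.5 of that value throughout, and serve here as an alternative. The eGFP row was left out, and no column was left unused. No 2 cells had identical counts.

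Counts were summed over the cells of a set or class and scaled to CPM; levels per kb use exon unions of GENCODE M21 (GRCm38). Intervals are exact 95% Poisson, Clopper-Pearson and conditional ratio intervals, which cover counting error only, since reads without molecular identifiers are not independent molecules. For log2 differences and the size rule, a side with fewer than 3 reads was given a floor of 3 reads for the whole class. Shares of cells follow thinning to 50000 reads per cell. For clusters, each cell was scaled to 10000 reads and logged, the 2000 most variable genes were reduced to 30 components, and a graph of 15 neighbours was cut by the Leiden method at resolution 1. The elastic fibre genes, their lists and a fixed set of others took no part. Cell type markers outside the lists were not held out. The 10871 genes kept out did not define the classes, but were measured in the same cells and are not independent of them. A class needed 40% or more of its own markers detected on average, and fewer than 50% of epithelial or leukocyte markers; both cuts were set after the files were seen. No doublet caller was run, and 89 doublet-like cells were left in and removed as an alternative. Free RNA was not modelled. Reads of overlapping genes cannot be told apart: exons of Eln, Fbn1, Mfap4, Lox and Loxl2 overlap another annotated gene.

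With 1 sample per side no test was made. The members, lists and markers were chosen with earlier results of these data known. Besides the 10 genes, the text names of each partner list the up to 3 genes highest in any class, and for each gene the 3 with the nearest pattern. Python 3.11.15, numpy 2.4.6, scipy 1.17.1, leidenalg 0.10.2 and, for TMM factors, edgeR 4.0.16 in R 4.3.3 were used. The size rule was checked on simulated counts.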

Additional observations from a re-analysis of the deposited data

Results flagged for a closer look

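Between cluster 3 and the other fibroblast-like cells, 3 genes differed by at least 0.5 on the log2 scale in opposite directions in different sets, a difference between sets that was not tested. Cluster 3 and the other cells numbered 6 and 35 in Mural1, 8 and 37 in Mural2 and 72 and 241 in Mural3. The log2 difference of Mfap4 was -0.94 in Mural1 (2006 CPM in cluster 3 against 3839 CPM in the others), -1.37 in Mural2 (1803 against 4663 CPM) and 1.23 in Mural3 (3474 against 1476 CPM). That of Emilin1 was -1.05 in Mural1 (127 against 263 CPM), 0.25 in Mural2 (169.9 against 143 CPM) and 0.83 in Mural3 (274 against 154 CPM). That of Lox was -0.79 in Mural1 (127 against 219.6 CPM), 0.71 in Mural2 (142 against 86.8 CPM) and -0.51 in Mural3 (176 against 249 CPM). Cluster 3 rests on few cells in Mural1 and Mural2, and neither Mfap4 nor Emilin1 nor Lox passed the size rule over all sets. Fbln2, Loxl1 and Mfap2 also differed in sign between sets, with log2 differences under 0.5 in at least 1 direction. Fbln2 stood at 298 against 1213 CPM in Mural1, 38.3 against 666 CPM in Mural2 and 569.7 against 517 CPM in Mural3. Loxl1 stood at 836 against 1333 CPM in Mural1, 835 against 1154 CPM in Mural2 and 956 against 858 CPM in Mural3. Mfap2 stood at 187 against 142 CPM in Mural1, 182 against 187 CPM in Mural2 and 218 against 217 CPM in Mural3.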

How the results depend on the processing

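No paired analysis was possible because the replicate numbers only name cells within a set, and each side of a comparison is 1 sample. The number of genes past the rule changed by over 1.5 times in 2 of the comparisons. For fibroblast-like cells of Mural3 against those of Mural1 and Mural2, where 1 passed (Mfap4), 0 passed with the mean of single cells, the authors' scores, TMM or median-ratio scaling. There 2 passed without Mural1 or without Mural2, and 2 with all genes in the clustering. For cluster 3 against the other fibroblast-like cells, where 2 passed, 1 passed under TMM scaling. No called direction reversed under any alternative run. TMM scaling shifted log2 differences of all genes by 0.52 for fibroblast-like against general capillary-like cells and by 0.42 for Mural3 against the EC sets, and in the other comparisons by -0.28 to 0.29. The fold of each of the 10 genes in each comparison was also set against its value under each alternative. It changed by over 1.5 times in 64 such cases, 18 of them on leaving out EC2 and 13 on leaving out Mural1. The same fold can count under several alternatives. The cause of these moves was not tested. Alternatives that left fewer than 20 cells on a side gave no value. Leaving out wells rich in Sftpc reads and finer clusters were alternatives added after the data were seen. The lymphatic endothelial-like class is limited by its 22 cells.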
